A study of Rattus norvegicus with 2 samples.

Results

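Cytoplasmic dynein is the motor that carries vesicles, organelles and RNA-protein particles toward the minus ends of microtubules, which in axons means from the nerve ending back to the cell body. Its heavy chain hydrolyses ATP and walks on the microtubule, its intermediate chains join the heavy chain to dynactin, its light intermediate chains bind cargo adaptors, and its light chains sit on the intermediate chains. Dynactin, whose p150Glued subunit is encoded by Dctn1, is the cofactor that dynein needs for long runs. The genes described here are Dync1h1, Dync1i1, Dync1i2, Dync1li1, Dync1li2, Dynll1, Dynlt1 and Dctn1, and their probe sets were taken wherever the platform's annotation gives 1 of these as the single gene symbol. That rule found 10 probe sets of 6 genes, among 4736 genes with a single-symbol probe set on the array. Dync1li1 and Dynll1 had no probe set of their own: Dync1li1 was not analysed here, and Dynll1 appears only on 1 probe set that it shares with another symbol, which was not used.

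The study set RNA of synaptosomes from the hippocampus, a preparation of detached nerve endings with adhering postsynaptic membrane, against RNA from the total hippocampus, to find transcripts enriched at the synapse. Both came from Sprague Dawley rats at postnatal day 70, with no treatment or genetic change named in the labels, and each was hybridised to 1 Affymetrix rat array. The number of animals behind each sample is not given in the sources used here, and with 1 array per group there is no replicate check and no test between groups. Signals are the authors' deposited intensities, which had a trimmed mean of 2500 on both arrays and were taken as already scaled. Values under a floor of 846 were set to 846, the log2 ratio was taken as synaptosomes over total hippocampus, and its median over filtered probe sets, -0.17, was subtracted, so that a centred fold is 1.13 times the plain quotient for a higher gene. With arrays on one scale, a ratio compares shares of the RNA hybridised: more of a transcript at the synapse, fewer cells of a type and less RNA per cell cannot be told apart.

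Dync1h1, Dync1i1 and Dctn1 read higher in synaptosomes with signals above the floor on both arrays, while the light chain Dynlt1 read slightly lower. Of the 6 genes, all of which passed the filter on mean level with at least 1 probe set, 4 were higher by 2-fold or more (Dync1i1, Dync1h1, Dync1i2 and Dctn1), 0 were lower by as much and 2 lay between (Dync1li2 and Dynlt1). Over the 2735 genes that passed the same filter, 19.1% were higher by 2-fold or more and 14.3% lower by 2-fold or more. The median centred log2 ratio was 1.17 over the 6 genes and 0.00 over all 2735. Dync1i2 passed the filter only through its synaptosome signal, so it had to read higher there, yet it counts in the 4 genes and in the median. When both arrays had to exceed the floor, 3 member genes (Dync1i1, Dync1h1 and Dctn1) were higher by 2-fold or more, against 291 of all 2234 genes. Without centring, 3 of the 6 genes reached 2-fold: Dync1h1, Dync1i1 and Dync1i2, the last only as a bound. Dctn1 fell just short at 0.98, and the shares over all genes were 14.7% higher and 19.5% lower.

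Dync1h1 encodes the heavy chain, the only chain with motor activity. Its 1 probe set (L08505_at) read 15580 in synaptosomes, against 6940 in the total hippocampus. That is a plain quotient of 2.24 and a centred fold of 2.53, or 1.34 on the log2 scale. Both readings lay above the size that 95% of the negative values on their arrays stayed under (2912.6 for synaptosomes, 5280.25 for the hippocampus), which serves here as a gauge of noise. Its ratio ranked 313 from the top among the 2735 genes, with 88.6% of genes at or below it.

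The intermediate chains connect the heavy chain to dynactin and to the light chains, and only 1 of the 2, Dync1i1, was measured above the floor on both arrays. Dync1i1, the intermediate chain found mainly in neurons, read 8792 in synaptosomes, against 2960 in the total hippocampus with its 1 probe set (X66845_at). Its centred fold of 3.34, or 1.74 on the log2 scale, was the highest of the 5 genes with readings above the floor on both arrays and ranked 165 among all genes. The hippocampus reading lay under 5280.25, and with a floor set at 5280.25 the log2 ratio of Dync1i1 was 0.83, short of 2-fold and below those of Dync1h1 (1.26) and Dctn1 (1.07). Dync1i2, the broadly expressed intermediate chain, read 1720 in synaptosomes, against 762 in the total hippocampus (U39044_at). The hippocampus value was under the floor, so the fold is written as at least 2.29-fold higher, or at least 2.03-fold without centring. Both of its readings lay within the spread of negative values, so this bound is not a guaranteed minimum, and with the floor at percentile 60 it was 0.43 on the log2 scale.

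Dync1li2, a light intermediate chain that links the motor to cargo adaptors, was the member with the most probe sets, and these did not point one way. The brightest (U15138_at) read 14196 in synaptosomes, against 9289 in the total hippocampus, a centred fold of 1.72 higher, or 0.78 on the log2 scale. A second (AB008521_s_at) read -1058 in synaptosomes, against 2428 in the total hippocampus, at least 2.55-fold lower, and it passed the filter only through the hippocampus signal. Another pair was at the floor on both arrays, AB008522_s_at with -716 in synaptosomes, against 220 in the hippocampus, and rc_AA891132_s_at with 477 in synaptosomes, against -1099 in the hippocampus. Only the brightest probe set had readings above the spread of negative values, and it is also the only 1 of the 4 whose name carries no suffix for probes that several transcripts may share. The mean over both filtered probe sets of Dync1li2 was -0.28, against 0.78 for the brightest alone.

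Dynlt1 encodes a Tctex-type light chain, a small subunit that also binds cargo proteins. Its brighter probe set (AB010119_g_at) read 4713 in synaptosomes, against 6314 in the total hippocampus, a centred log2 ratio of -0.25 or 1.19-fold lower. The other (AB010119_at), designed on the same source sequence, read 164 in synaptosomes, against -2185 in the hippocampus, under the floor on both. Dynlt1 was thus the only member gene whose reported ratio was below 0, and 40.4% of all genes had a ratio at or below its own.

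Dctn1 encodes the dynactin subunit that binds both microtubules and the dynein intermediate chain. Its 1 probe set (X62160_at) read 20288 in synaptosomes, against 10320 in the total hippocampus, a plain quotient of 1.97 and a centred fold of 2.21, or 1.15 on the log2 scale, with both readings above the noise gauge. It ranked 419 among the 2735 genes, with 84.7% of genes at or below it.

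**Figure D1:**
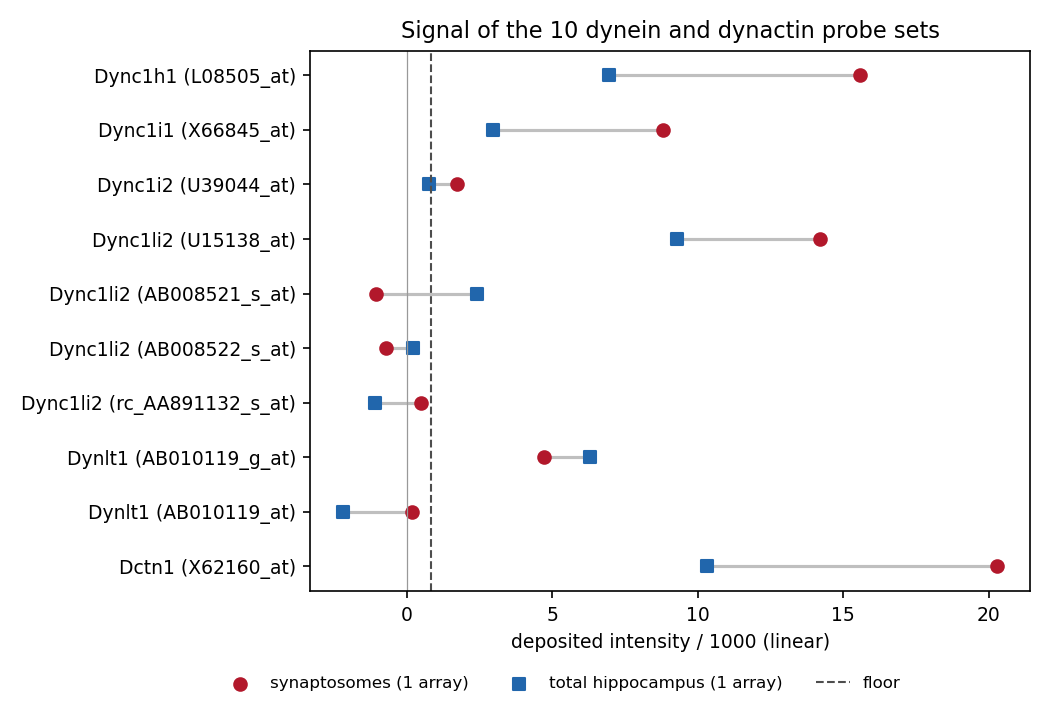
Deposited intensity, divided by 1000, on a linear axis for the 10 probe sets of the 6 genes, 1 array of synaptosomes (circles) and 1 of total hippocampus (squares), with the floor of 846 as a dashed line. The circles of Dync1h1, Dync1i1, Dctn1 and the brightest Dync1li2 probe set lie to the right of their squares, the order is turned for Dynlt1, and the remaining probe sets lie near or under the floor on at least 1 array.

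The contrast between chain classes can be read as a difference of log2 ratios, from which a linear scaling and the centring of the arrays cancel. Among the members, the light chain side of it is 1 suffixed probe set of 1 gene, Dynlt1. Relative to Dynlt1, the change of Dync1h1 was larger by 1.59 on the log2 scale, or 3.01-fold. The same difference was 1.99, or 3.98-fold, for Dync1i1 and 1.40, or 2.63-fold, for Dctn1. The only spread these data offer is that between probe sets of 1 gene: over 658 genes with several filtered probe sets its standard deviation (SD) was 0.90, which makes 1.28 the SD of a difference between 2 probe sets. The 3 differences from Dynlt1 exceeded that SD, by a factor of 1.24 for Dync1h1, 1.56 for Dync1i1 and 1.09 for Dctn1. With the floor at 5280.25, which also raised the synaptosome reading of Dynlt1 (4713), they were 1.42, 0.99 and 1.23 for the same genes. Only that of Dync1h1 was still above 1.28, but this SD was taken with the floor at 846 and is not matched to the higher floor. The brightest Dync1li2 probe set stood 1.03 above Dynlt1, within the spread.

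Ordered by ratio, the genes ran Dync1i1 (1.74), Dync1h1 (1.34), Dync1i2 (1.19, a lower bound whose place is not fixed), Dctn1 (1.15), Dync1li2 (0.78) and Dynlt1 (-0.25), and no neighbours in this order differed by more than 1.28. Dync1h1 and Dctn1 differed by 0.19 and Dync1h1 and Dync1i1 by 0.40. The spread was smaller for bright probe sets: among 132 genes with several probe sets reading above 5280.25 on both arrays, a limit chosen after the data were seen, the SD was 0.45. The ratios of Dync1h1, Dctn1 and the brightest Dync1li2 probe set, all of this brightness, were each larger than 0.45. This SD covers neither animals nor preparations nor amplifications.

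**Figure D2:**
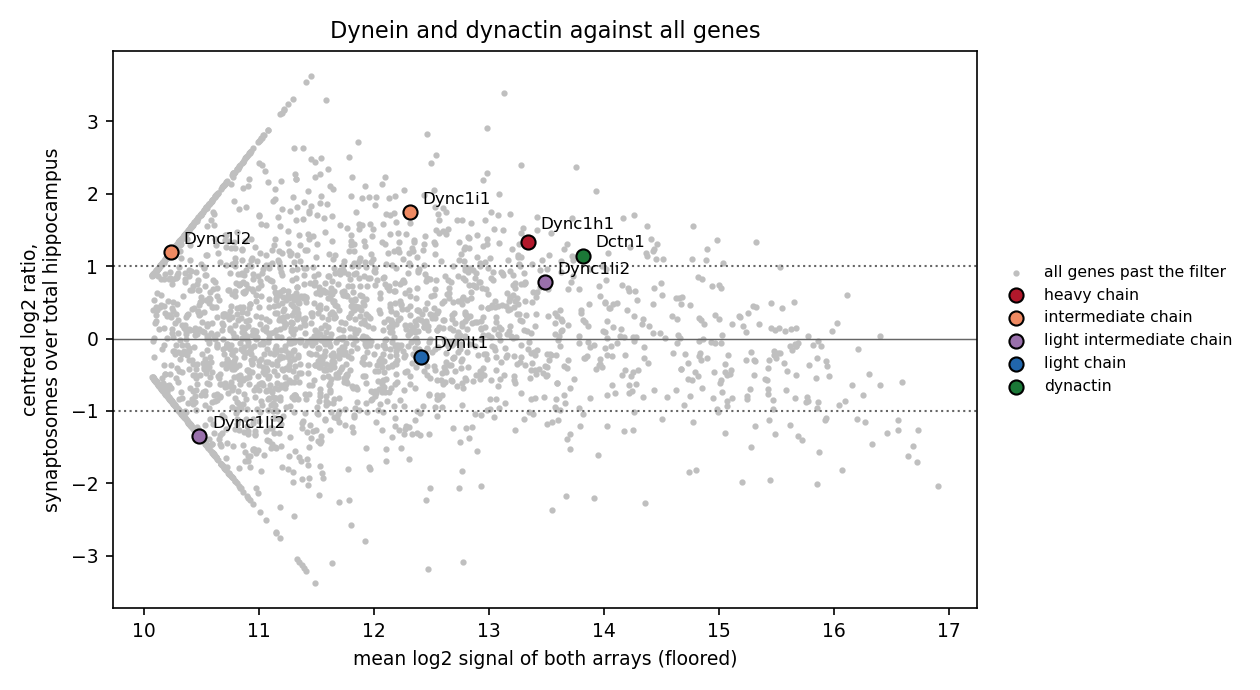
Centred log2 ratio of synaptosomes over total hippocampus against the mean log2 signal of both arrays, for all 2735 genes past the filter (grey) and the 7 member probe sets past it (coloured by chain class), with dotted lines at 2-fold. Dync1h1, Dync1i1 and Dctn1 lie above the upper line at moderate to high signal, Dynlt1 lies just under 0, and Dync1i2 and the lower Dync1li2 point lie on the edges formed by genes at the floor on 1 array.

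The promoters of the 3 genes past 2-fold upward with readings above the floor on both arrays, and of Dynlt1 as the contrast, are shown for context. They are the RefSeq windows of assembly GRCr8 from 250 bases before to 50 after the annotated start, 5′ to 3′ on the gene's strand, with GGGCGG boxes of either strand (GGGCGG or its complement CCGCCC) in capitals. All 6 member genes with a probe set matched a RefSeq promoter.
Dync1h1: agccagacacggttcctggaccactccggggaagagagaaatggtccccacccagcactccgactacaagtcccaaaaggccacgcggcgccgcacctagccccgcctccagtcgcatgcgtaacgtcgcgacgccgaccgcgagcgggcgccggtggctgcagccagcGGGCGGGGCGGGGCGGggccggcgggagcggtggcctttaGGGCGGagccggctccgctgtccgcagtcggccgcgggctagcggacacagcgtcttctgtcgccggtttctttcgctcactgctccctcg
Dync1i1: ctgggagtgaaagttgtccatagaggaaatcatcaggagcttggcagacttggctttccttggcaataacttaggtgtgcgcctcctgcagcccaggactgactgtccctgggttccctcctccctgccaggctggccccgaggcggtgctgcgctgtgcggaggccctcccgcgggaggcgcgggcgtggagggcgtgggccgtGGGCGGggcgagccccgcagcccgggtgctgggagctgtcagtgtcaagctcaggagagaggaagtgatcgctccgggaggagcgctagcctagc
Dctn1: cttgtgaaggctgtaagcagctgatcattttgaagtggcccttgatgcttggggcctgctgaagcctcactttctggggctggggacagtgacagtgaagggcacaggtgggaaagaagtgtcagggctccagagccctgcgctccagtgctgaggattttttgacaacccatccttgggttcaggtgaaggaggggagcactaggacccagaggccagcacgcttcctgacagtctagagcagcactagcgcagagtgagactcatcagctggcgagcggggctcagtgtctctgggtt
Dynlt1: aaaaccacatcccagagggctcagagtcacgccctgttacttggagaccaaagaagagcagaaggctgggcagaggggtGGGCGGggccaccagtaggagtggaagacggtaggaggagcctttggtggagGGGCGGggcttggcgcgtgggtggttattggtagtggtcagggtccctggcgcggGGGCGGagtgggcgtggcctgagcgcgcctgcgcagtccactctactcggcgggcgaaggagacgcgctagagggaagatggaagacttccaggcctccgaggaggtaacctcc
These lie at chr6:135436228-135436527 (plus strand), chr4:34819191-34819490 (plus strand), chr4:117241473-117241772 (plus strand) and chr1:49298868-49299167 (minus strand). The Dync1h1 window held 4 GGGCGG boxes, which overlap in part, Dynlt1 held 3, Dync1i1 held 1 and Dctn1 held 0, while 33.1% of 33469 promoter windows of this length held at least 1. Dync1h1 had 40 CG dinucleotides, Dync1i1 and Dynlt1 19 each and Dctn1 5, against a median of 7 over all windows. CCAAT, searched on both strands, occurred once in Dynlt1 and in none of the other 3 windows (37.5% of all windows held it), and TATAAA in none of the 4 (14.2% of all). The arrays compare fractions of 1 tissue and do not measure promoter activity.

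Other chains of the motor and of dynactin were read from a list of 22 genes, of which 7 had a single-symbol probe set and 3 passed the filter. Of these 3, 0 were 2-fold higher and 1 was 2-fold lower or more. That gene was Dynlrb1, a roadblock-type light chain, with 47103 in synaptosomes, against 144993 in the total hippocampus, a centred fold of 2.74 lower or -1.45 on the log2 scale (AF073839_s_at). Dynlrb1 lay below Dync1h1 by 2.79 on the log2 scale. The 123 genes with a mean log2 level of 15 or more had a median ratio of -0.46, and with a loess correction for signal strength the ratio of Dynlrb1 was -0.65 and the gap 1.84. After quantile normalization they were -0.64 and 1.85, so neither correction kept Dynlrb1 past 2-fold. The actin-capping subunits Capza1 and Capza2, which also cap the dynactin filament, had ratios of 0.50 and 0.25. Both readings of Capza1 lay under the noise gauge. The dynactin subunit Dctn4, with 335 in synaptosomes, against 1316 in the hippocampus, did not pass the filter. Dync2h1, the heavy chain of the ciliary transport dynein, and the axonemal heavy chains Dnah1 and Dnah7 were under the floor on both arrays.

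Few regulators of dynein could be read. Of 22 listed regulators and cargo adaptors 10 were on the array and 4 passed the filter, with 0 past 2-fold in either direction and a median of -0.16, against 0.00 over all genes. Pafah1b1, or Lis1, which holds dynein on microtubules under load, read 3546 in synaptosomes, against 4288 in the total hippocampus with its brightest probe set, a ratio of -0.10, and its other probe sets gave -0.51 and -0.68. The dynein-associated protein Nudc had a ratio of -0.21, the cargo adaptor Hook1 one of 0.15 and the microtubule end-binding protein Mapre1 one of -0.53. Both readings of Nudc, Hook1 and Mapre1 lay under the noise gauge, as did the hippocampus reading of the brightest Pafah1b1 probe set. Hap1, Mapk8ip1 and Htt were under the floor on both arrays.

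Among 9 known binding partners or regulators of dynein light chains, 6 were on the array and 3 passed the filter. Dlgap1, a postsynaptic scaffold that binds the light chain of the Dynll type, read 1713 in synaptosomes, against -429 in the total hippocampus, at least 2.28-fold higher, and its other probe set was under the floor on both. It passed the filter only through the synaptosome signal, so it had to read higher there, and that signal lay under the noise gauge, so the bound is not a guaranteed minimum. Gphn, gephyrin of inhibitory synapses, had a ratio of 0.21, with both readings under the noise gauge. Bcl2l11, the cell death protein Bim, read 1696 in synaptosomes, against 4201 in the hippocampus, a ratio of -1.14. Both readings lay under the noise gauge, its 3 other probe sets were under the floor on both arrays, and with the floor at percentile 75 the ratio was -0.50, short of 2-fold. The 3 probe sets of Nos1 were under the floor on both arrays.

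Kinesins, many of which carry cargo the opposite way, offered few readings for comparison. Of 35 listed genes 10 were on the array and 2 passed the filter, 1 past 2-fold upward and 1 past 2-fold downward. Klc1, a kinesin light chain, read 13895 in synaptosomes, against 7132 in the total hippocampus, a ratio of 1.13, with its other probe sets near or under the floor. The ratio was 0.96 without centring and 0.98 with the loess correction, both short of 2-fold. Kif3c, a motor of the kinesin-II type, read 7455 in synaptosomes, against 24114 in the hippocampus, a ratio of -1.52, and its other probe set was under the floor on both. The probe sets used for Klc1 and Kif3c lay above the noise gauge on both arrays, and the list as a whole had no common direction.

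**Figure D3:**
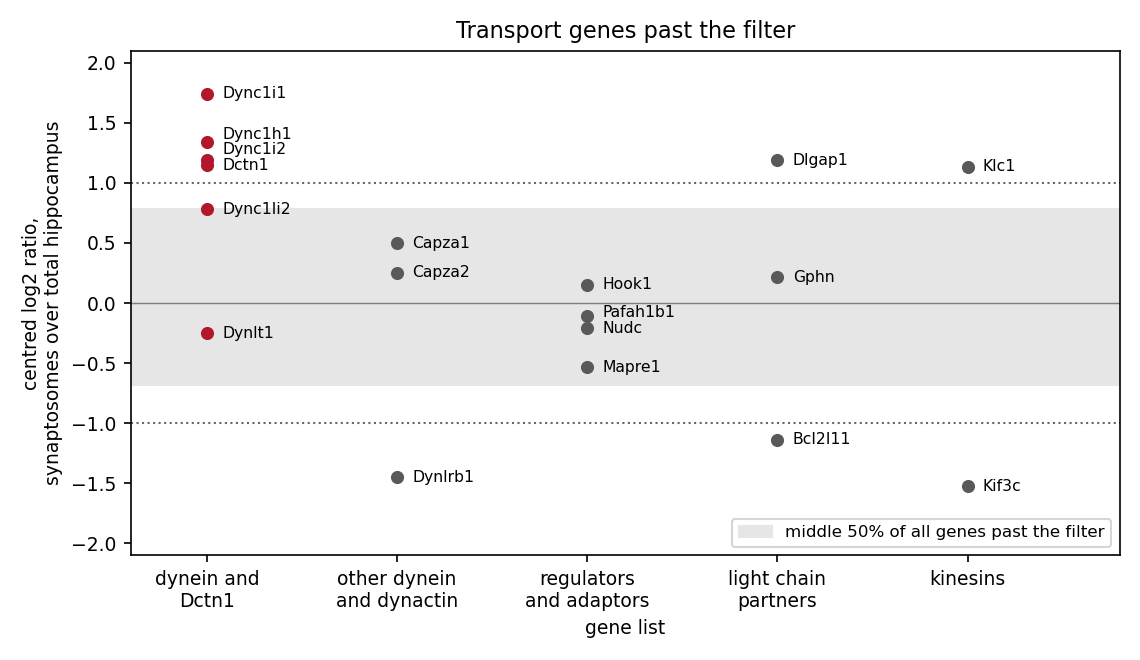
Centred log2 ratio of synaptosomes over total hippocampus for each gene past the filter in 5 lists, with the 6 dynein and Dctn1 genes at the left, dotted lines at 2-fold and a grey band for the middle 50% of all genes past the filter (-0.68 to 0.78). Of the dynein and Dctn1 genes, 4 lie above the upper dotted line, as do Dlgap1 and Klc1 of the other lists. Dync1i2 and Dlgap1 are bounds with the hippocampus at the floor. The 4 regulators lie within the band, and Dynlrb1, Bcl2l11 and Kif3c lie under the lower dotted line.

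Markers of cell types differed between the arrays too, and their part in the dynein result was not tested. Of 6 neuronal markers 3 passed the filter, 0 higher by 2-fold or more and 1 lower, with summed signals of 52532 in synaptosomes, against 123978 in the total hippocampus, most of it Snap25 with a ratio of -1.56. The other filtered probe sets of Snap25 gave -1.79, -1.20 and -0.74. The other 2 markers, Syt1 (0.35) and Nefl (0.59), read higher, and the median of the 3 was 0.35, the value of Syt1. Both readings of Syt1 lay under the noise gauge. Of 6 astrocyte markers 5 passed, 1 higher and 1 lower, with sums of 166980 in synaptosomes, against 165155 in the hippocampus. The lower marker was Slc1a2 at -1.51, with both readings under the noise gauge, and its other filtered probe sets gave 1.24 and -0.77. Of 6 oligodendrocyte markers 5 passed, 1 higher and 3 lower, with sums of 22946 in synaptosomes and 41456 in the hippocampus. Of 6 microglial markers 2 passed, 0 past 2-fold in either direction, with sums of 10109 in synaptosomes, against 7059 in the hippocampus. Of these Aif1 had a ratio of 0.98, and 2.74 with a second probe set whose hippocampus reading lay under the noise gauge. Of 6 endothelial markers 3 passed, 0 higher and 2 lower (Flt1 at -1.21 and Kdr, at the floor in synaptosomes, at -2.03), with sums of 4432 in synaptosomes, against 12999 in the hippocampus. Both readings of Kdr and the synaptosome reading of Flt1 lay under the noise gauge. Csf1r and Vwf were under the floor on both arrays. Signal of the actin control probe set at the 3′ end was 40454 in synaptosomes, against 38944 in the hippocampus, and at the 5′ end 5193 in synaptosomes, against 7849 in the hippocampus. Those of Gapdh were 43598 at the 3′ end and 40562 at the 5′ end in synaptosomes, against 86466 and 82010 in the hippocampus.

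**Figure D4:**
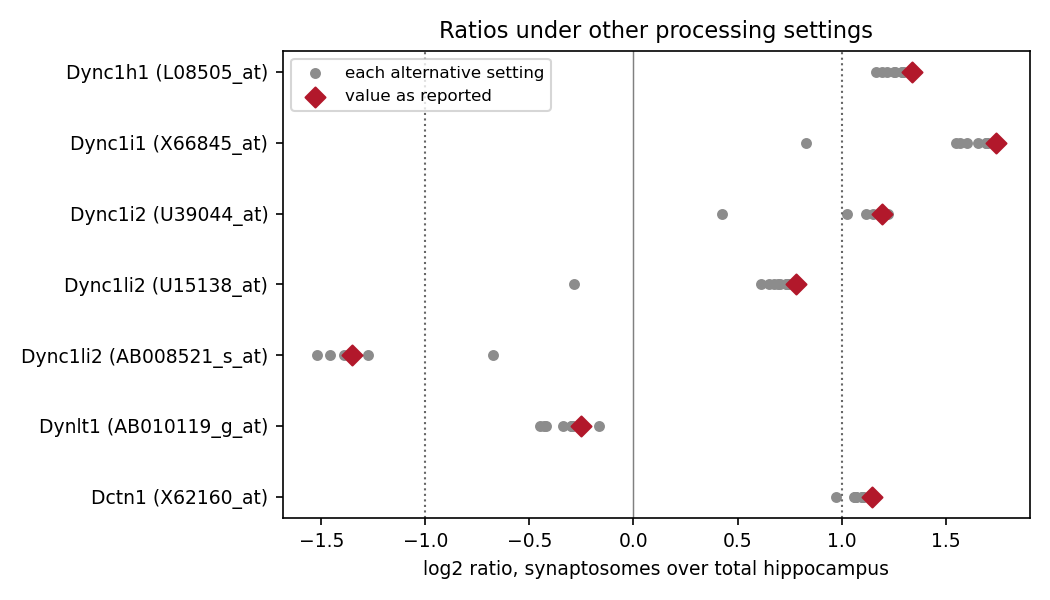
Log2 ratio of synaptosomes over total hippocampus of the 7 member probe sets past the filter, as reported (diamonds) and under each other processing setting that left a value (grey dots), with dotted lines at 2-fold. Dync1h1 stays between 1.17 and 1.34, Dctn1 between 0.98 and 1.15 and Dynlt1 between -0.45 and -0.17. Dync1i1, Dync1i2 and the lower Dync1li2 probe set each have 1 setting far from the others. The far dot of the brightest Dync1li2 probe set, at -0.28, is the mean over both filtered probe sets of the gene. Its own ratio stays between 0.61 and 0.78.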

How the data were processed

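The deposited table holds linear intensities for 8799 probe sets, 59 of them controls, as whole numbers with equal trimmed means (2% left out at each end), taken as scaled by the authors. Scanner software was not given in the sources used here, nor was any correction for background. In synaptosomes 25.2% and in the total hippocampus 31.4% of non-control intensities were 0 or negative. The floor was the median of the pooled non-control values. Probe sets with a mean log2 level at or above the median, a signal of 1078, passed the filter, and a gene took its probe set with the highest mean. Of 8740 non-control probe sets, 7006 had 1 gene symbol, 308 several and 1426 are unnamed here. All 6 member genes were found in RefSeq's gene table for GRCr8, with 0 symbols changed. Every member probe set is named. Every gene of the 4 transport lists that passed the filter is named, and of the rest and of the cell type markers only some. The members and lists were chosen with earlier results of these data known. Counts of genes past 2-fold carry no p-value. The number of arrays limits the precision. Alternatives covered centring, floor, scaling, filter and probe set choice. The calculation was tested on simulated data, made from the hippocampus array without added noise, which checks the arithmetic only. Python 3.11.15, NumPy 2.4.6, pandas 2.3.3, SciPy 1.17.1, statsmodels 0.14.6 and matplotlib 3.10.9 were used.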

Additional observations from a re-analysis of the deposited data

How the results depend on the processing

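Dync1h1 was at least 2-fold higher in synaptosomes under all 11 alternatives, with log2 ratios of 1.17 to 1.34, and Dctn1 under 10 of 11, at 0.98 without centring. The mean over probe sets and the removal of suffixed probe sets could not change either, as each has 1 probe set without a suffix. The floor and filter settings left the readings of both genes unchanged and shifted these ratios only through the centring, so they are not separate checks. Quantile normalization and the loess correction gave 1.22 and 1.19 for Dync1h1, and 1.07 and 1.06 for Dctn1. Dynlt1 stayed below 0 in the 10 that left it a value, and without suffixed probe sets it had none. With a floor of 5280.25, added after the data were seen, Dync1i1 was at 0.83, as its hippocampus reading is then at the floor, and Dync1i2 had no value. At that floor 2 member genes were at least 2-fold higher and 0 lower, while of all 991 genes past the filter 8.3% were higher and 8.0% lower. With the floor at percentile 60, Dync1i2 was at 0.43 and the lower Dync1li2 probe set at -0.68. With the mean over probe sets Dync1li2 was at -0.28. The counts of all genes at least 2-fold higher and lower, 522 and 391, were 173 and 136 with the floor at percentile 75, 202 and 161 with the filter at percentile 75, 291 and 254 when both arrays had to exceed the floor, and 82 and 79 with the floor of 5280.25; each of these leaves fewer genes. Without centring they were 403 and 532, so that 43.1% of genes past 2-fold were higher, against 57.2%. The gap between Dync1h1 and Dynlt1 was 1.42 to 1.64 over 10 alternatives. Only quantile normalization (1.64), the loess correction (1.64) and the floor of 5280.25 (1.42) moved it from 1.59. The others could not move it, because centring cancels in a difference and their floors and filters left these readings unchanged. No paired analysis was possible because each group is 1 array.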
